A study of Mus musculus with 10 samples.

Results

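The comparison set angiotensin II (AngII) against PBS in wild-type hearts. It used the 5 wild-type arrays of a series of 10, chosen by their titles: WT PBS 3 and WT PBS 5 (n = 2), and WT AngII 2, 3 and 4 (n = 3). The mice were SV129 males aged 32 weeks. They were littermates of animals lacking the kinase PKCz, which account for the other 5 arrays. The WT AngII mice had received the peptide, dissolved in PBS, under the skin for 14 days from osmotic minipumps at 432 µg per kg per day. The WT PBS mice are named as PBS controls in the titles and the design, while their source label calls them non-treated, so whether they carried a pump cannot be told. Transcripts of whole hearts were measured as log2 expression values on 1-colour arrays, and 45037 probe sets, representing 18193 named genes, were tested. The labels do not tie each array to an animal of its own, so p-values here reflect the spread between the samples as deposited, which may be technical.

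AngII is the effector peptide of the renin-angiotensin system. It acts on G protein-coupled receptors of vessel and heart, raises blood pressure and, infused for weeks, enlarges the heart muscle. Loaded heart muscle typically makes more natriuretic peptide and returns to fetal isoforms of contractile proteins, while fibroblasts lay down collagen around it. Immediate early genes, which encode transcription factors and feedback inhibitors, are by contrast switched on within minutes of a stimulus and decay quickly.

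In these hearts the transcripts with the smallest p-values were mostly lower under AngII. They included immediate early genes such as Errfi1, Egr2, Btg2 and Atf3, with group means 3.36- to 6.06-fold lower, the regulator Ifrd1 and the matrix protease Adamts1. Nppa and Acta1, markers of hypertrophy, were higher on every AngII array, with group means 1.50- and 1.34-fold above PBS, while the mean of Nppb was 1.58-fold lower. Genes of fatty acid oxidation and respiration were slightly lower together. Collagen and matricellular genes were higher on average, but chiefly on the array WT AngII 2. No probe set passed limma's test after Benjamini-Hochberg adjustment (0 of 45037, 0%; lowest adjusted p = 0.069). An unadjusted p under 0.05 was reached by 2356 probe sets (5.23%), 772 higher and 1584 lower. The differences below are therefore measured values, and none of them passed the adjusted test unless this is stated.

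The array WT AngII 2 stood apart from the other wild-type arrays. It correlated with them at r = 0.9752 to 0.9826 over all probe sets, against 0.9875 to 0.9935 among the other 4. Its 24 genes of fibrillar collagens and their processing lay on average 1.39 log2 above the mean of the 5 arrays, whereas the same genes deviated by −0.54 to −0.24 on the other 4. Without it 3 probe sets passed, all lower (0.00666%; limma, adjusted p = 0.0446 for each), and 5063 reached an unadjusted p under 0.05 (11.2%), 2262 higher and 2801 lower. Of the 2356 probe sets, 1755 also reached it without WT AngII 2 and in the same direction. Each value below is followed, where it matters, by the value without this array. Added bacterial control RNAs read 12.86 to 13.33 on all 5 wild-type arrays. The arrays of the series were grouped into batches of control RNA by this signal alone, and the wild-type arrays all fell into the high group. The labelled tissue was checked by its 12 cardiomyocyte markers: Myh6 read 14.32 to 14.48 and Gata4, a cardiac transcription factor, 9.04 to 9.46 on these arrays.

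The calls made without WT AngII 2 concerned 2 genes, and they depended on the fit. When that array was left out of a fit on the wild-type arrays alone, a setting chosen after seeing the data, 0 probe sets passed, and with the mean of each gene's probe sets Egr2 and Tox3 passed while Spry4 did not. Egr2, a zinc-finger transcription factor of the early growth response family, read 7.27 and 8.35 on the PBS arrays and 6.95, 5.01 and 5.26 on WT AngII 2, 3 and 4. All AngII arrays lay below both PBS arrays, with WT AngII 2 nearest to them. Egr2 differed by −2.07 ± 0.49 (SE; adjusted p = 0.877) with all 5 arrays and fell by 2.67 ± 0.31 without WT AngII 2. Its second probe set differed by −1.80 and, without that array, by −2.29. Spry4, a Sprouty protein that dampens growth factor signals, fell by 1.23 ± 0.15 without WT AngII 2 on a dim probe set, which gave −1.31 ± 0.15 with all arrays and the lowest adjusted p of the whole table. It read 6.30 and 6.37 under PBS against 4.84 to 5.22 under AngII, without overlap. The other 3 probe sets of Spry4 gave −0.48, 0.11 and 0.50, so the probe sets of this gene disagree in direction.

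Ifrd1, a transcriptional regulator named for its induction by interferon and growth factors, had the smallest p of the genes as represented by their brightest probe sets. It read 9.71 and 9.69 under PBS and 8.67, 8.63 and 8.68 under AngII. Both groups were far apart and the arrays within each nearly level, and the difference was −1.05 ± 0.15 with and without WT AngII 2 (adjusted p = 0.34 and 0.159). Adamts1, a secreted protease that cleaves proteoglycans, read 9.80 and 10.30 under PBS and 8.58, 8.26 and 8.57 under AngII, 2.99-fold lower (−1.58 ± 0.30, adjusted p = 0.709). No AngII array came near a PBS array. Amy1, an amylase, differed by −1.06 ± 0.17 and Slc12a5, a potassium-chloride cotransporter, by −1.15 ± 0.22.

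Of the 30 genes with the smallest unadjusted p, 28 were lower under AngII and 2 higher. In all 30 the groups did not overlap, with adjusted p of 0.34 or above. These genes were picked for their small p, so this is a description. Several of them act in the nucleus and in ribosome assembly: Nop58, a nucleolar protein that guides RNA modification (−1.37 ± 0.31), Rrs1, a ribosome assembly factor (−0.64 ± 0.15), Kpna2, an importin (−0.55 ± 0.12), and Rbmx, an RNA-binding protein (−0.74 ± 0.16). Others are enzymes: Glo1, which detoxifies methylglyoxal (−0.68 ± 0.13), As3mt, an arsenite methyltransferase (−0.69 ± 0.14), and Adhfe1, a mitochondrial dehydrogenase (−0.77 ± 0.18). Otud1, a deubiquitinase, was among the genes with the largest difference. It read 10.15 and 11.65 under PBS against 9.17, 8.26 and 8.94 under AngII (−2.11 ± 0.46). Its PBS arrays were far from each other, and both lay above all AngII arrays. The remaining genes of this group included the protein phosphatase Ppm1h (−0.81), the membrane protein gene Tmem47 (−0.70), the noncoding Snhg14 (−1.18), Cabcoco1 (−0.92), Zcchc10 (−0.73), Zfp568 (−0.86), the histone gene H2bc21 (−0.91), Olfm3 (−0.32) and Tsc22d1 (−0.46). The 2 that were higher were Kif20a, a mitotic kinesin, and Zdhhc14, a palmitoyltransferase (0.59 ± 0.15). Without WT AngII 2, 19 of the 20 leading genes were lower, 10 of them shared with the 30. The others included Tox3 (−1.29), Nrn1 (−1.20), the cationic amino acid transporter gene Slc7a1 (−1.06), Spty2d1 (−0.97) and the poly-ADP-ribosyltransferase gene Tiparp (−0.74). Ggt5, a gamma-glutamyltransferase that converts leukotriene C4, was higher (0.76 without WT AngII 2 and 0.59 with it). Each of these values is that of the brightest probe set, and others of the same gene could differ in sign. Zdhhc14 reached −0.42. Slc12a5 (0.11), Slc7a1 (0.12), Adhfe1 (0.23), Ggt5 (−0.01), Tsc22d1 (0.28), Rbmx (0.05), Olfm3 (0.02) and Spty2d1 (0.07) each had 1 on the other side of 0.

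**Figure D1:**
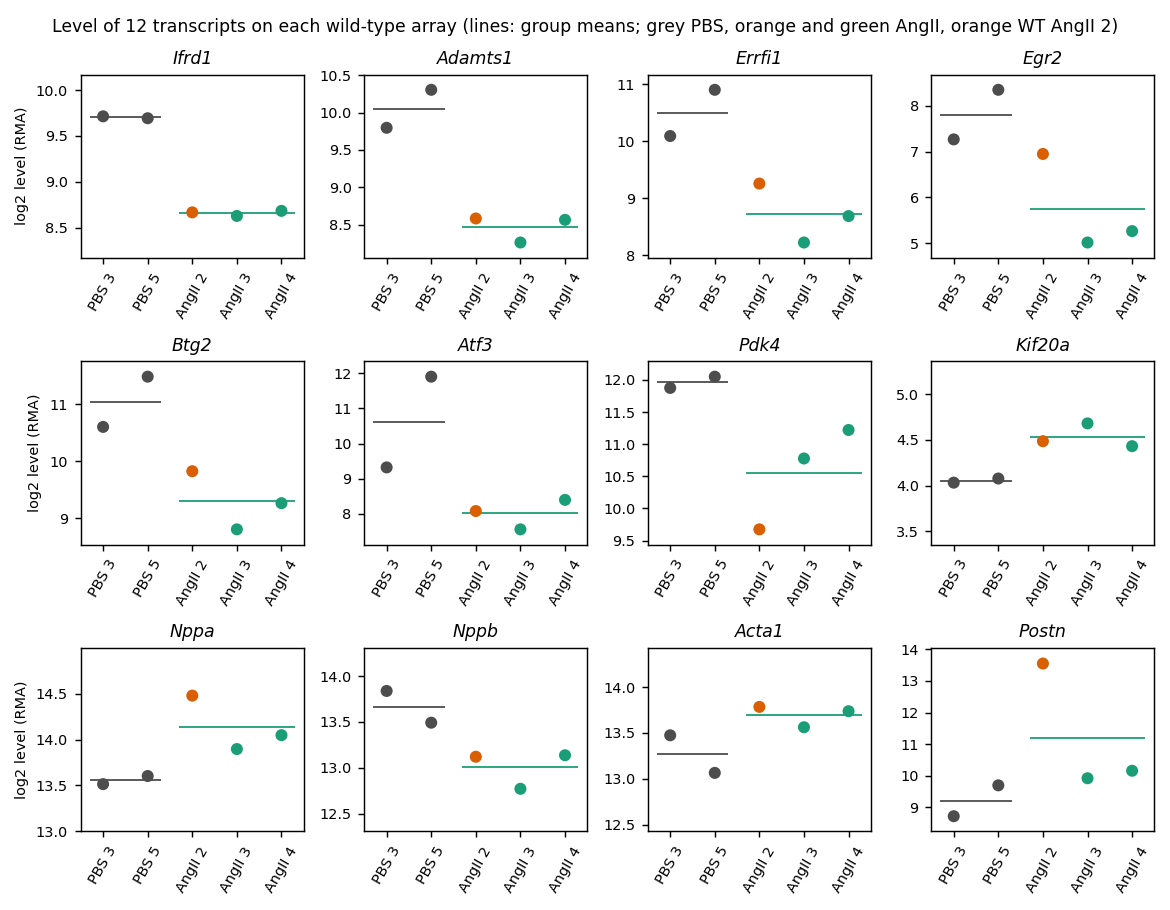
Log2 level of 12 genes on each of the 5 wild-type arrays, 1 panel a gene with its own axis; points are arrays and lines are group means. AngII and PBS arrays do not overlap in any of the 12 panels, and WT AngII 2 stands apart for Postn (13.55) and Pdk4 (9.67).

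As a group, the immediate early genes had the lowest median of the 37 gene lists examined. The lists and their members were chosen with earlier results of these data known, so this rank is a description. Of 33 measured members 31 lay below 0, with a median of −0.65, against a median of −0.00 over all genes. In 17 of the 33 (51.5%) all AngII arrays lay below both PBS arrays, which was the case for 12.7% of all genes. The median was −0.71 without WT AngII 2, when WT AngII 3 and 4 lay below both PBS arrays in 22 members (66.7%, against 28.6% of all genes). Left-out arrays moved the median between −0.71 and −0.46.

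Among the transcription factors of the list, Atf3, a stress-induced repressor, had the largest difference. It read 9.32 and 11.90 under PBS against 8.08, 7.56 and 8.40 under AngII (−2.60 ± 0.64). WT PBS 5 was far above WT PBS 3, which was in turn above all AngII arrays. Fos, a subunit of the AP-1 dimer, read 8.91 and 10.78 under PBS and 8.17, 6.83 and 8.16 under AngII (−2.12 ± 0.61). Its partners differed less, Jun by −0.72 ± 0.35 and Junb by −0.69 ± 0.40 with overlapping groups, while Fosl2 was lower on all AngII arrays (−1.29 ± 0.40). Egr1, the founding member of its family, read 11.10 and 11.54 under PBS and 9.80, 9.52 and 9.53 under AngII (−1.71 ± 0.43). The orphan nuclear receptor genes Nr4a1 and Nr4a3 gave −1.28 ± 0.38 and −1.28 ± 0.39, with no overlap in either, and the third of the family, Nr4a2, −0.08 ± 0.15. Klf6 (−0.65), Klf4 (−0.53) and Ier2 (−0.65) were lower on all AngII arrays as well. Myc differed by −0.37 ± 0.16 with overlapping groups.

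Among the feedback inhibitors, Errfi1, which shuts off the EGF receptor, had the smallest p of the list. It read 10.09 and 10.90 under PBS and 9.25, 8.22 and 8.68 under AngII, 3.42-fold lower (−1.78 ± 0.34). Btg2, which restrains cell division, read 10.60 and 11.48 against 9.82, 8.80 and 9.26 (−1.75 ± 0.42). In both genes every AngII array was lower and WT AngII 2 was the highest of them. Of the phosphatases that inactivate MAP kinases, Dusp1 was lower on all AngII arrays (−0.53 ± 0.25), whereas Dusp5 (−0.24 ± 0.18) and Dusp6 (−0.26 ± 0.39) overlapped. Zfp36, which destabilises inflammatory mRNAs, differed by −0.89 ± 0.35 with overlap. The members above 0 were Jund (0.14 ± 0.29) and Egr3 (0.01 ± 0.16). A dimmer Egr3 probe set gave −2.45, and the probe sets of Errfi1 (down to −0.56), Csrnp1 (0.09) and Nr4a3 (0.35) also differed from their brightest one.

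Promoters of the list were searched for a pair of known response elements. Of the 33 members 27 had an entry in the RefSeq promoter table (GRCm38.p6), and the 250 bases before the start were searched on both strands. The cAMP response element TGACGTCA, a palindrome bound by CREB and ATF factors, stood in 4 of 27 (14.8%; Btg2, Errfi1, Dusp1 and Maff) and in 1.77% of 27025 genes. The CArG box, bound by serum response factor, stood in 3 (11.1%; Egr2, Dusp5 and Zfp36) and in 1.62% of all genes. Windows around the element are shown for 3 genes with large differences, with the element in capitals. They are 5′ to 3′ on the gene's strand at chr10:67537434-67537563 (plus strand, 1 of 5 starts of Egr2), chr4:150854959-150855069 (plus, 1 of 2 starts of Errfi1) and chr1:134079254-134079381 (minus, Btg2).
Egr2: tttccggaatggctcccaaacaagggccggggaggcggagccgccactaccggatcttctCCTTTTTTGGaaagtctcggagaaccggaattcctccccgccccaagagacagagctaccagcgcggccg
Errfi1: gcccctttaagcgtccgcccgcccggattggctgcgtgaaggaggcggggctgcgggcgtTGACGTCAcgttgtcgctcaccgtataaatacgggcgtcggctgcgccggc
Btg2: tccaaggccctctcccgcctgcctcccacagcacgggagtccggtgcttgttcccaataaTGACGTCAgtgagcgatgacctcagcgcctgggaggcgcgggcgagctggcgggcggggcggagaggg
The element lay 72 to 63 bases before the start in Egr2, 51 to 44 in Errfi1 and 166 to 159 in Btg2. A match describes the letters of the window only.

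Signs of RNA handling were compared between the same groups, and only the 18S signal separated them. The 18S ribosomal RNA signal was 9.16 and 8.07 on the PBS arrays and 7.52, 7.34 and 6.60 on the AngII arrays, without overlap. For beta-actin the 3′ probes minus the 5′ probes, a difference that grows as RNA is shortened, gave 1.17 and 1.70 under PBS and 0.92, 1.33 and 1.01 under AngII, with overlap. For Gapdh the same measure gave 0.29 and 0.59 under PBS and 0.18, 0.45 and 0.28 under AngII, also with overlap. The part of any of these signs in the immediate early difference was not tested. The mean deviation of the list from the 5-array mean was 0.26 and 0.71 on WT PBS 3 and 5 and −0.12, −0.59 and −0.26 on WT AngII 2, 3 and 4. Both PBS arrays thus lay above all AngII arrays, and WT PBS 5 was the highest.

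Several heat shock genes were lower under AngII as well. Hspa1a, an inducible chaperone of the HSP70 family, read 8.95 and 8.22 under PBS and 6.86, 5.81 and 6.85 under AngII (−2.08 ± 0.84). All AngII arrays were lower, and WT AngII 3 was lowest. Its near-identical neighbour Hspa1b gave −1.51 ± 0.90, and probes of one may also bind the other. The cochaperone gene Dnajb1 gave −0.77 ± 0.40 and the endoplasmic reticulum chaperone gene Hspa5 −0.40 ± 0.15. Of 29 measured chaperone genes 23 lay below 0 with a median of −0.11, and 6 (20.7%, against 12.7% of all genes) were lower on every AngII array. The median was −0.03 without WT PBS 3 and −0.24 without WT PBS 5.

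The classical hypertrophy markers differed in direction. Nppa, which encodes atrial natriuretic peptide, read 13.51 and 13.60 under PBS and 14.48, 13.90 and 14.05 under AngII. All AngII arrays were higher and WT AngII 2 highest, a difference of 0.58 ± 0.15 (adjusted p = 0.877), or 0.41 without that array. Nppb, which encodes the B-type peptide, read 13.84 and 13.49 under PBS and 13.12, 12.77 and 13.14 under AngII. All AngII arrays were lower (−0.66 ± 0.36, adjusted p = 0.93), and without WT AngII 2 the difference was −0.71. The genes of the receptors and processing enzymes of these peptides, Npr1, Npr2, Npr3, Corin and Furin, lay between −0.23 and 0.18 with overlapping groups.

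Of the sarcomere genes, Acta1, the skeletal actin that is re-expressed in loaded hearts, read 13.47 and 13.06 under PBS and 13.78, 13.56 and 13.74 under AngII (0.43 ± 0.13; 0.38 without WT AngII 2). The groups did not overlap, but WT AngII 3 was close to WT PBS 3, and the difference was 0.22 without WT PBS 5 and 0.63 without WT PBS 3. Its promoter holds a CArG box 73 to 64 bases before the only start in the table, shown in capitals in the window chr8:123894779-123894908 (minus strand) for comparison with Egr2, which differed the other way.
Acta1: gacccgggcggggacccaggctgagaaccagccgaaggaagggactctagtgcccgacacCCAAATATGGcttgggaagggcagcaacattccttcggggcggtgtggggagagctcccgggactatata
Myh7, the slow myosin heavy chain that rises in stressed mouse ventricle, read 12.42 and 11.78 under PBS and 13.03, 12.09 and 12.41 under AngII. The groups overlapped (0.41 ± 0.31), and without WT AngII 2 the difference was 0.15. Myh6, the adult heavy chain, was slightly lower on all AngII arrays (−0.10 ± 0.06; −0.49 on its dimmer probe set), near the top of the scale where differences are compressed. Over the 17 genes of fetal and adult sarcomere isoforms the median was 0.01, and 1 gene was higher (5.88%, against 7.87% of all genes) and 3 were lower (17.6%, against 12.7%) without overlap.

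Stretch-responsive and Z-disc genes were lower in 13 of 15 members (median −0.10). Only 3 of the 15 were lower on every AngII array, against 12.7% of all genes, and 1 was higher. Without WT AngII 2, WT AngII 3 and 4 lay below both PBS arrays in 5 members (33.3%, against 28.6% of all genes) and above both in 2. Xirp1, a protein of the intercalated disc, read 11.32 and 11.48 under PBS against 10.27, 9.88 and 10.47 under AngII (−1.19 ± 0.28). The groups were well apart. Nrap, which anchors actin at the disc, gave −0.29 ± 0.11 and Csrp3, the muscle LIM protein of the Z-disc, −0.25 ± 0.10, both without overlap. Ankrd1, often used as a stretch marker, gave −0.05 ± 0.08 with overlap. Vim, the intermediate filament of fibroblasts and other mesenchymal cells, was higher (0.58 ± 0.23). The median of the list was −0.04 without WT PBS 3, −0.17 without WT AngII 2 and −0.38 without WT PBS 5.

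The signalling genes named by the study lay close to 0 on their brightest probe sets. Mapk7, which encodes ERK5, gave 0.21 ± 0.14 with no overlap, Map2k5, its activating kinase, −0.05 ± 0.20, and Gnaq, the G protein alpha-q, −0.05 ± 0.17. A dimmer Map2k5 probe set gave 0.44 without overlap, and the others of this gene −0.13 and −0.05. Prkcz, which encodes PKCz, gave 0.02 ± 0.13 and Agtr1a, the main AngII receptor gene, −0.22 ± 0.17. Repeated quantile normalisation turned the signs of Map2k5 (0.028), Gnaq (0.052) and Prkcz (−0.0078), and equal array medians that of Prkcz (−0.018). Over 24 measured genes of ERK5 and Gq signalling the median was −0.00, with 12 above and 12 below 0. Rgs2, which ends Gq signals, was lower on every AngII array (−0.38 ± 0.18; 0.25 on 1 of its 4 probe sets). Of 11 genes of the renin-angiotensin system 6 lay above 0 (median 0.04), among them Agtr2 (0.20 ± 0.09) at a level of 3.88 to 4.23, near the bottom of the scale.

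**Figure D2:**
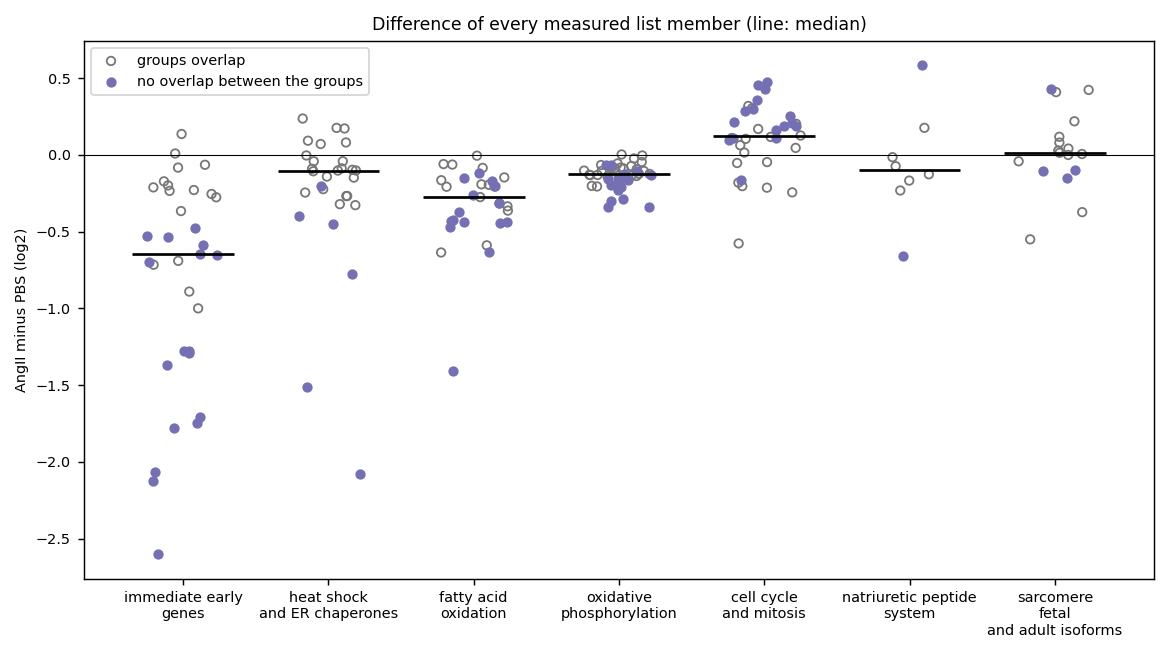
AngII minus PBS difference in log2 of every measured member of 7 gene lists; each point is a gene, filled where no AngII array overlaps a PBS array, and the line is the list median. The immediate early genes reach −2.60 with a median of −0.65, all 31 genes of fatty acid oxidation lie below 0, and 26 of 34 cell cycle genes lie above it.

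Genes of fatty acid oxidation, the main fuel pathway of the adult heart, were lower without exception. All 31 measured members lay below 0, with a median of −0.28, and 16 (51.6%) were lower on every AngII array, as were 12.7% of all genes. Pdk4, a kinase that blocks pyruvate dehydrogenase, read 11.88 and 12.05 under PBS and 9.67, 10.78 and 11.22 under AngII (−1.41 ± 0.35). WT AngII 2 was lowest, and the other AngII arrays were still below both PBS arrays. Acadvl, the very-long-chain acyl-CoA dehydrogenase, read 12.82 and 12.85 against 12.13, 12.54 and 12.52 (−0.44 ± 0.12). Acot1, a cytosolic thioesterase (−0.63 ± 0.19), Eci2, an enoyl-CoA isomerase (−0.43 ± 0.14), and Slc25a20, the carnitine carrier (−0.47 ± 0.18), followed without overlap. Without WT AngII 2 30 of 31 lay below 0, the median was −0.16, and in 17 (54.8%) WT AngII 3 and 4 lay below both PBS arrays, against 28.6% of all genes.

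Oxidative phosphorylation showed the same sign at a smaller size. Of 44 genes 43 lay below 0 (median −0.13), and 18 (40.9%) were lower on every AngII array, against 12.7% of all genes. Ndufv1 of complex I read 13.28 and 13.53 under PBS and 12.99, 13.14 and 13.06 under AngII (−0.34 ± 0.10), and Sdha of complex II gave −0.34 ± 0.14. Both were separate from PBS on all AngII arrays. Without WT AngII 2 the median was −0.06 with 35 genes below 0, and Ndufv1 and Sdha gave −0.30 and −0.18. In 18 (40.9%) WT AngII 3 and 4 then lay below both PBS arrays, against 28.6% of all genes. The mean deviation of the list was 0.06 and 0.10 on WT PBS 3 and 5. It was −0.19, 0.04 and −0.01 on WT AngII 2, 3 and 4, so WT AngII 2 was lowest and WT AngII 3 close to WT PBS 3. Glucose uptake and glycolysis gave a median of −0.05 over 24 genes, with Hk2, a hexokinase, lower on every AngII array (−0.36 ± 0.14). The 12 cardiomyocyte markers had a median of −0.04, 9 of them below 0, and their summed linear signal was 174280 and 175538 under PBS and 163788 to 172851 under AngII. In whole-heart RNA, fewer cells of a type and less RNA per cell cannot be told apart.

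Genes of the cell cycle were slightly higher by their median. Of 34 measured members 26 lay above 0 with a median of 0.12, and in 15 (44.1%) all AngII arrays lay above both PBS arrays, which was the case for 7.87% of all genes. Kif20a read 4.03 and 4.08 under PBS and 4.49, 4.68 and 4.43 under AngII (0.48 ± 0.11). The groups did not overlap, but the level is near the bottom of the scale. Bub1b, a spindle checkpoint kinase (0.45 ± 0.16), Cdk1, the kinase that drives mitosis (0.43 ± 0.16), and Mki67, the proliferation antigen Ki-67 (0.21 ± 0.14), were higher on every AngII array. The other probe sets of Bub1b gave −0.04 and −0.01. Cdkn1a, the inhibitor p21, gave −0.58 ± 0.31 with overlap. Without WT AngII 2 the median was 0.13, again with 26 genes above 0, and in 19 (55.9%) WT AngII 3 and 4 lay above both PBS arrays, against 23.3% of all genes. The summed linear signal of the list was 8222 and 8416 under PBS and 8858, 8048 and 8562 on WT AngII 2, 3 and 4. By that measure WT AngII 3 lay below both PBS arrays.

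**Figure D3:**
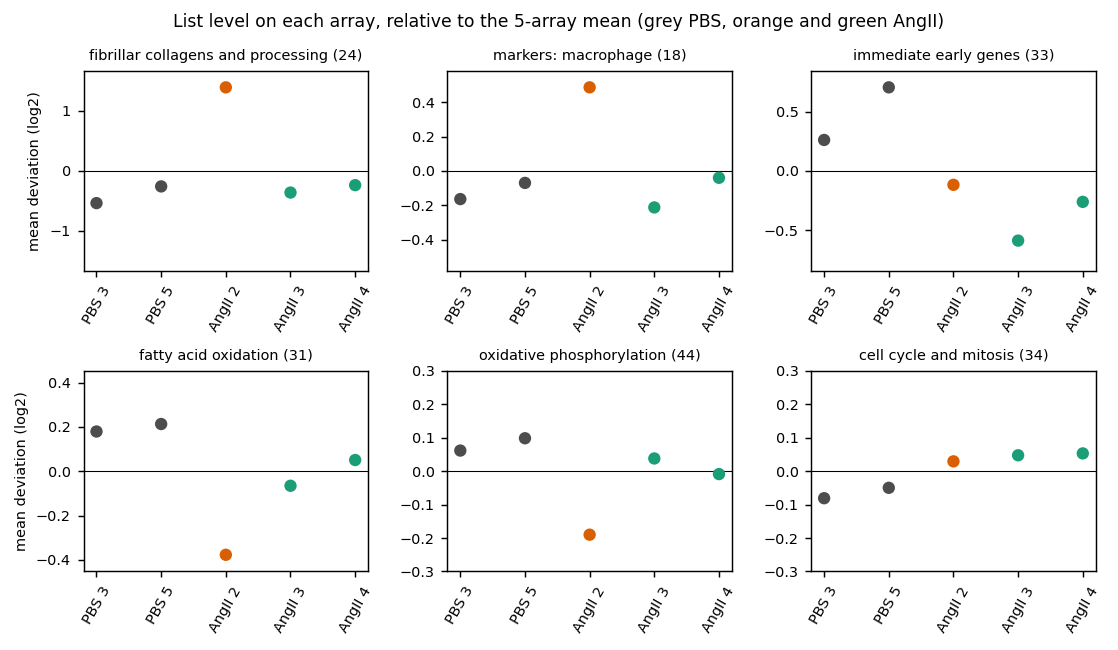
Mean deviation of 6 gene lists from the 5-array mean of each gene, in log2, on each wild-type array; 1 point an array, each panel with its own axis. Collagen genes (1.39) and macrophage markers (0.49) stand high on WT AngII 2 alone, whereas immediate early genes and cell cycle genes separate the PBS arrays from all AngII arrays.

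Matrix genes were higher on average, and most of that height came from 1 array. Of 24 genes of fibrillar collagens and their processing 22 lay above 0 with a median of 0.50, and 8 (33.3%) were higher on every AngII array, against 7.87% of all genes. Without WT AngII 2 the median was 0.13 and 16 lay above 0, and in 8 (33.3%) WT AngII 3 and 4 lay above both PBS arrays, which held for 23.3% of all genes. Col1a1, a chain of type I collagen, read 8.21 and 8.86 under PBS and 12.80, 8.87 and 9.18 under AngII. WT AngII 2 was far above all other arrays and WT AngII 3 level with WT PBS 5, and the difference was 1.75 ± 0.85, or 0.49 without WT AngII 2. Col3a1, of type III collagen, gave 1.35 ± 0.63 and 0.42, and Col11a1, of type XI collagen, 1.37 ± 0.80 and 0.18. The dimmer Col3a1 probe set gave 1.36 and 0.07. Pcolce, which enhances the trimming of procollagen, had the smallest p of the list (0.72 ± 0.31, and 0.30 without WT AngII 2). Lox, the enzyme that cross-links collagen, read 7.23 and 7.54 under PBS and 10.78, 6.88 and 6.90 under AngII. Its difference was 0.80 ± 0.86 with all arrays and −0.49 without WT AngII 2, since the other AngII arrays lay below PBS.

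Among the matricellular genes, whose products steer cells within the matrix, Postn, the periostin made by activated fibroblasts, read 8.72 and 9.70 under PBS and 13.55, 9.92 and 10.16 under AngII. Every AngII array was higher, WT AngII 3 only just, and the group mean was 4.01-fold higher, against a difference of 0.83 ± 0.30 log2 without WT AngII 2. Comp and Mfap4 gave 1.47 ± 0.63 and 1.76 ± 0.79 with overlap, and 0.59 and 0.64 without that array. Thbs1, a thrombospondin that activates TGF-beta, read 8.41 and 8.26 under PBS and 8.90, 6.18 and 6.84 under AngII. WT AngII 2 was above PBS and the other AngII arrays far below it (−1.03 ± 0.58; −1.82 ± 0.28 without WT AngII 2, adjusted p = 0.177). Ccn1, a growth factor-responsive matrix gene, read 9.73 and 12.05 under PBS and 9.85, 9.89 and 9.93 under AngII, high on WT PBS 5 alone, and the difference was 0.16 without that array. Its relative Ccn2 gave −0.54 ± 0.41 with overlap. Over the 17 matricellular genes the median was 0.38, and −0.01 without WT AngII 2.

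Proteoglycan and elastic fibre genes lay above 0 in 21 of 22 cases (median 0.48; 0.13 without WT AngII 2). In 3 (13.6%) all AngII arrays lay above both PBS arrays, against 7.87% of all genes. Without WT AngII 2 14 of 22 lay above 0. WT AngII 3 and 4 lay above both PBS arrays in 4 (18.2%), a smaller share than the 23.3% of all genes. Lum, a small proteoglycan on collagen fibrils, read 10.40 and 10.37 under PBS and 12.39, 10.96 and 10.89 under AngII. It remained separate without WT AngII 2 (1.03 ± 0.37 and 0.54). Bgn, a related proteoglycan (1.07 ± 0.42 and 0.45), and Mfap5, of the elastic microfibrils (1.51 ± 0.60 and 0.66), did so too. Basement membrane genes had a median of 0.30, and 0.04 without WT AngII 2. Lama5, a laminin chain, gave 0.50 ± 0.16 and 0.52, and Sparc, a collagen-binding protein, 1.10 ± 0.40 and 0.52. Their second probe sets overlapped and gave 0.24 and 0.11 for Lama5 and 0.71 and 0.24 for Sparc. The dimmest gave 0.18 and 0.28 for Lama5 and −0.01 and 0.12 for Sparc. Of the protease and inhibitor genes (median 0.04), Timp1, a tissue inhibitor of metalloproteinases, read 9.48 and 7.63 under PBS and 10.02, 7.77 and 7.72 under AngII, so that 1 array of each group was high. Its difference was −0.05 ± 0.65, 0.020 after repeated quantile normalisation and −0.81 without WT AngII 2. The TGF-beta pathway had a median of 0.01 over 21 genes, and −0.21 with 18 below 0 without WT AngII 2.

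**Figure D4:**
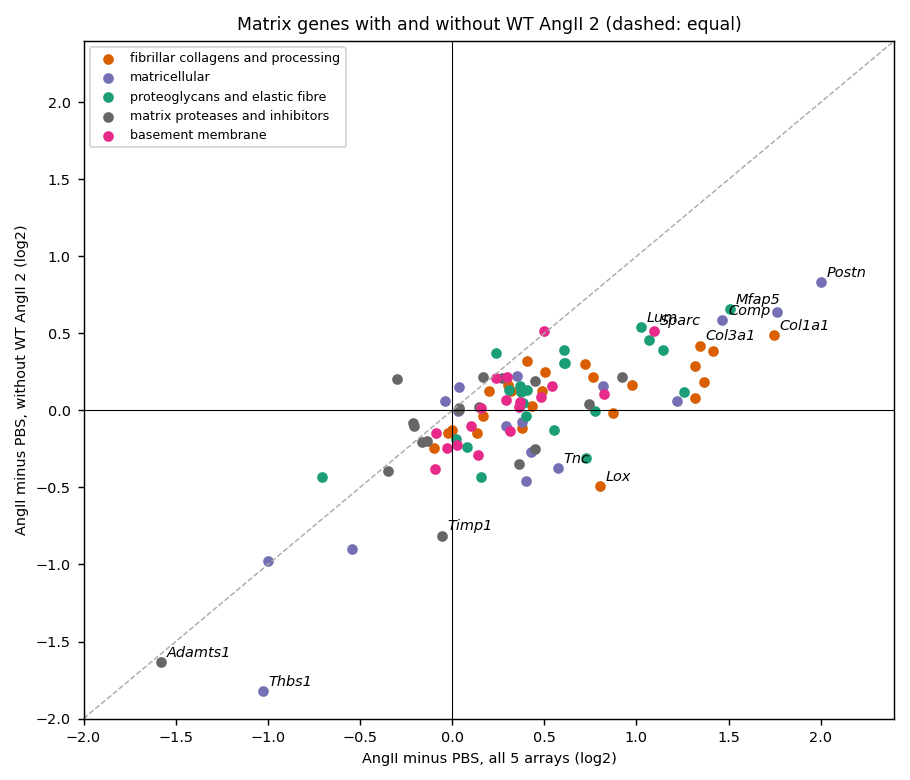
AngII minus PBS difference of the matrix genes of 5 lists with all 5 arrays (horizontal) and without WT AngII 2 (vertical), both in log2; each point is a gene and the dashed line marks equal values. Most points lie below the line, Col1a1 moves from 1.75 to 0.49, Lox from 0.80 to −0.49, and Adamts1 stays at −1.58 and −1.64.

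Cell type markers were set beside these values. Fibroblast markers were higher in 12 of 13 genes (median 0.40; 0.32 without WT AngII 2), and 7 (53.8%) were higher on every AngII array, against 7.87% of all genes. The list shares Lum, Dcn, Mfap5 and the type I collagen genes with the matrix lists. Cd248, a surface protein of fibroblasts and pericytes, gave 0.51 ± 0.16 and 0.51, and Pi16, an adventitial fibroblast marker, 0.86 ± 0.31 and 0.63, although its dimmer probe set gave −0.10. The summed linear signal of the 13 fibroblast markers was 17447 and 21428 on the PBS arrays and 45890, 20604 and 23266 on WT AngII 2, 3 and 4, so WT AngII 3 lay within the PBS range. The 9 myofibroblast markers, which include Postn and Comp, had a median of 1.26, and 0.12 without WT AngII 2. Their summed signal was 7390 and 8096 under PBS and 25898, 8158 and 9367 under AngII. The part of these cells in the matrix values was not tested.

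Macrophage markers lay above 0 in 12 of 18 genes (median 0.18, and 0.04 without WT AngII 2). With all arrays 0 of 18 were separate between the groups. Of all genes, 7.87% were higher and 12.7% lower on every AngII array. Lyz2, the lysozyme of macrophages and neutrophils, read 10.39 and 10.50 under PBS and 11.89, 10.43 and 10.51 under AngII, so that WT AngII 2 alone was high. The summed macrophage signal was 7660 and 8655 under PBS and 16775, 7887 and 9240 under AngII. On this array macrophage and fibroblast markers were thus high together with the matrix genes, and their part in its matrix values was not tested.

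Chemokine and cytokine genes had a median of −0.17 over 30 genes, with 18 below 0 and 7 (23.3%, against 12.7% of all genes) lower on every AngII array. Several of these values rested on WT PBS 3. Ccl2, the chief monocyte attractant, read 9.06 on WT PBS 3, 6.03 on WT PBS 5 and 6.18, 6.03 and 6.08 on the AngII arrays. It was level everywhere but on WT PBS 3 (−1.45 ± 0.59; 0.06 without that array), and it was named for that array after its values were seen. Socs3, a brake on cytokine signals, read 9.59 and 7.86 under PBS and 7.82, 6.30 and 7.08 under AngII (−1.66 ± 0.55). The AngII arrays were all lower, WT AngII 2 by little. Cx3cl1, fractalkine, was higher (0.54 ± 0.18) and Cxcl12, which retains stem and immune cells, lower (−0.51 ± 0.17), both without overlap on the brightest probe set. The other probe sets of Cx3cl1 lay between −0.02 and 0.05 and those of Cxcl12 at −0.06 and 0.04. Without WT PBS 3 the median of the list was 0.02, and without WT AngII 2 it was −0.23. The neutrophil genes S100a8 and S100a9 were high on WT PBS 5 (10.07 and 9.43) and gave −1.18 ± 0.65 and −1.32 ± 0.66 with overlap.

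Endothelial markers lay below 0 in 11 of 14 genes (median −0.13). Kdr, the main VEGF receptor, read 9.81 and 9.39 under PBS and 8.96, 9.20 and 9.04 under AngII (−0.53 ± 0.21). The AngII arrays were all lower. Flt1, its decoy relative, gave −0.47 ± 0.21 with overlap. The median of the list was −0.05 without WT PBS 3, −0.02 without WT AngII 3 and −0.23 without WT AngII 2, and the summed signal was 16686 and 16338 under PBS against 14659 to 16234 under AngII.

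**Figure D5:**
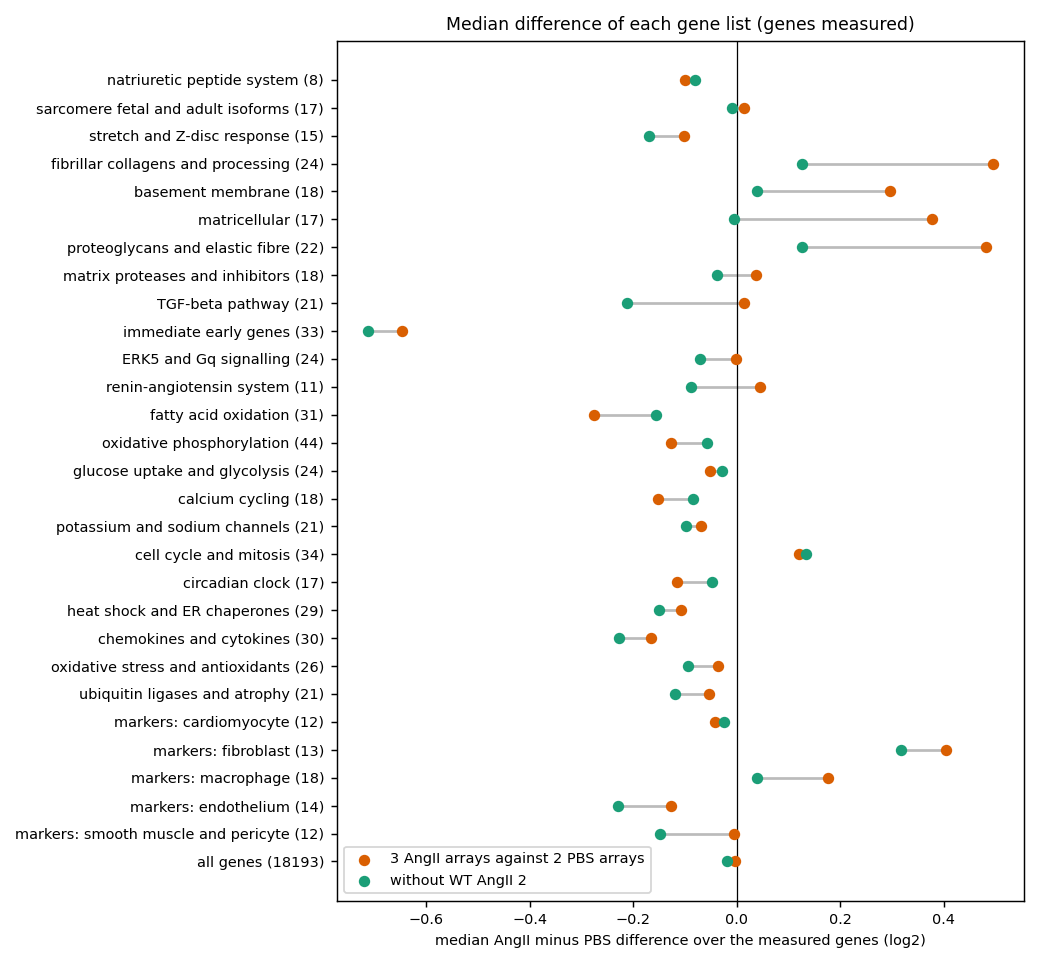
Median AngII minus PBS difference, in log2, of 28 gene lists and of all genes, with the number of genes measured in brackets; orange points use all 5 wild-type arrays and green points leave out WT AngII 2. The immediate early genes stay at −0.65 and −0.71 and the cell cycle at 0.12 and 0.13, while the fibrillar collagens go from 0.50 to 0.13.

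The hearts without PKCz, 3 PBS and 2 AngII arrays, were set beside these differences. On both of their AngII arrays and 1 PBS array the control RNAs read low (6.90 to 7.08). This low signal was taken as a second batch, so treatment and batch cannot be fully told apart in these hearts. No probe set showed a called difference between the responses (limma, 0 of 45037, 0%), with or without the batch as a block, and 737 reached an unadjusted p under 0.05 (1.64%). The values side by side were −1.05 in wild type and 0.01 ± 0.15 without PKCz for Ifrd1, −1.58 and 0.34 ± 0.30 for Adamts1, and −2.07 and 0.11 ± 0.49 for Egr2. Ifrd1, Adamts1 and Egr2 were picked for small p-values in wild type, which by itself favours larger differences there. These pairs therefore do not show that a difference is particular to wild type. For Nppb they were −0.66 and 0.65 ± 0.36, for Nppa 0.58 and 0.81 ± 0.15, and for Acta1 0.43 and 0.43 ± 0.13. The median of the immediate early genes without PKCz was −0.02, that of fatty acid oxidation −0.24 and that of the fibrillar collagens 0.23.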

How the data were processed

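The deposited table holds log2 expression values, which the authors computed with RMA, as the submitters' processing notes state (background correction, quantile normalisation, probe summary). No source used here gives its version. As RMA shares information between arrays, 1 distorted array can shift the others slightly, and differences near both ends of the scale are compressed. Arrays have no read depth; precision is set by how many there are. Of 45101 probe sets, 64 Affymetrix controls were dropped.

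The test was limma 3.58.1 (R 4.3.3): 1 mean for each of the 4 groups, fitted to the 10 arrays, a moderated two-sided test with an intensity trend, and Benjamini-Hochberg adjustment over the 45037 probe sets, called at 0.05. The spread had 6 residual degrees of freedom. A permutation of 5 arrays could not reach that threshold and was not used. A value without WT AngII 2 comes from the same fit on the other 9 arrays. Values are log2 differences ± SE.

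In the platform annotation 34945 probe sets have 1 gene symbol, 932 several and 9160 none; symbols were updated by Entrez identifier from the RefSeq table of GRCm38.p6 for 34741. A gene is represented by its probe set of highest mean among those with 1 symbol. Summed signals are sums of 2 to the power of the log2 values. Lists are described by counts and medians, without a test; 669 of 717 listed gene names were measured.

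Named were 11 fixed genes, every called gene, the 30 genes of smallest unadjusted p (20 without WT AngII 2), and in each described list the 2 to 4 members of smallest p and those the list is known by. Further members, chosen for their role, were named after their values were seen. The members and lists were chosen with earlier results of these data known. The scripts were tested on simulated data. Other settings tried were equal array medians, repeated quantile normalisation, a filter on dim probe sets, eBayes without trend or robust, and array weights. Further ones were only the wild-type arrays, a replicate block, a control RNA batch block, averaging all probe sets of a gene, and omitting each wild-type array.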

Additional observations from a re-analysis of the deposited data

How the results depend on the processing

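The count of called probe sets, 0, was also 0 under equal array medians, repeated quantile normalisation, a filter on dim probe sets, eBayes without trend, only the wild-type arrays (with and, as chosen after seeing the data, without WT AngII 2), the batch block and averaged probe sets per gene. It was 1 with robust eBayes (Spry4, −1.31), 1 with the title number as a replicate block (Ccl2, −3.07), 2 with gene means without WT AngII 2 (Egr2 and Tox3), and 0 to 3 with an array left out: Ccn1 without WT PBS 3 (−2.16), Ccl2 without WT PBS 5 (−2.96). Array weights gave 262, 197 lower and 65 higher, with WT AngII 4 weighted 7.20 and WT AngII 2 0.22; of these 247 had an unadjusted p under 0.05 and the same direction without weights. They included Nppa and Lama5 (higher) and Errfi1, Egr2, Egr1, Btg2, Csrnp1, Fosl2, Adamts1 and Mgst1 (lower). The title numbers do not pair the arrays: deviations of same-numbered arrays correlated at −0.355 to 0.103, and the wild-type groups share only 1 number. Of 35 genes tried under 17 settings 29 kept their direction. The others, with main values between −0.05 and 0.41, turned in direction, given with their range over left-out arrays: Myh7 (replicate block −0.016), Ankrd1 (gene mean 0.051; −0.16 to 0.067), Prkcz (equal medians −0.018, quantile −0.0078; −0.027 to 0.083), Map2k5 (quantile 0.028, replicate block 0.21, gene mean 0.053; −0.27 to 0.17), Gnaq (quantile 0.052, replicate block 0.0078; −0.20 to 0.046) and Timp1 (quantile 0.020; −0.98 to 0.87). Where leaving out 1 array leaves a group with 1, that array is assumed to vary like the others. The cause of these changes was not tested.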

Other observations

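Genes of the circadian clock differed in several members. Of 17 measured genes 11 lay below 0 (median −0.12; −0.05 without WT AngII 2), and 5 (29.4%, against 12.7% of all genes) were lower on every AngII array. Cry1, a repressor of the clock, read 6.21 and 6.39 under PBS and 5.56, 5.77 and 5.83 under AngII (−0.58 ± 0.18), and the clock-linked repressor gene Nfil3 gave −0.80 ± 0.36. Per1 was lower on every AngII array as well (−0.63 ± 0.30), while Nr1d1 gave 0.39 ± 0.30 with overlap. The hours at which the hearts were taken are not given in the labels.

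Ion channel genes were lower in 15 of 21 members (median −0.07), and 5 (23.8%, against 12.7% of all genes) were lower on every AngII array. Kcnv2, a modifying potassium channel subunit, read 7.81 and 7.35 under PBS and 6.53, 7.19 and 6.97 under AngII (−0.69 ± 0.20; −0.50 without WT AngII 2). Abcc9, the regulatory subunit of a metabolic potassium channel, gave −0.36 ± 0.14, and Gja1, the connexin of the intercalated disc, −0.18 ± 0.10, both without overlap. Calcium cycling genes had a median of −0.15, with Jph2, which holds the dyad together, at −0.37 ± 0.16 with overlap (0.41 on its dimmer probe set) and Atp2a2, the calcium pump, at −0.08 ± 0.07.

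Of 26 genes of oxidative stress and defence, 5 (19.2%) were lower on every AngII array, against 12.7% of all genes. Mgst1, a membrane glutathione transferase, read 11.83 and 12.19 under PBS and 11.38, 11.60 and 11.32 under AngII (−0.58 ± 0.16). Nox4, an oxidase that makes hydrogen peroxide, gave 0.62 ± 0.32 and 0.17 without WT AngII 2. Among genes of atrophy and insulin signalling, Irs2, an insulin receptor substrate, read 7.08 and 9.09 under PBS and 6.71, 6.44 and 6.81 under AngII (−1.43 ± 0.46). WT PBS 5 was far above all other arrays. Trim63 and Fbxo32, ubiquitin ligases of muscle atrophy, gave −0.15 ± 0.13 and 0.21 ± 0.23.

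Marker lists of other tissues gave medians between −0.19 and 0.19: T, B and NK cells 0.02, neutrophils and mast cells −0.04, erythroid cells −0.19, adipocytes −0.04, atrium and conduction tissue 0.19, epicardium −0.12, nerve 0.09, skeletal muscle −0.02 and smooth muscle −0.01.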
